A study of Mus musculus with 50 samples.

Results

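The genes described here encode a chromatin repression system: the zinc finger protein Zfp809, the co-repressor Trim28, the histone methyltransferase Setdb1 and its partner Atf7ip, the heterochromatin readers Cbx1, Cbx3 and Cbx5, the histone chaperone subunits Chaf1a and Chaf1b, and the ATPase Morc3. They were chosen by name, with earlier results of these data known, and all 10 were found among the 35750 genes of the deposited table. Each was measured in all 9 groups of embryos and passed the filter on low values in every comparison. In embryos given Duxbl mRNA, the 10 genes did not move as a block by the late 2-cell stage. Trim28, Zfp809, Setdb1, Morc3 and Cbx5 were lower than in control-injected embryos, Cbx1 was higher, and Atf7ip, Cbx3, Chaf1a and Chaf1b were not called.

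TRIM28 (also called KAP1) is a scaffold brought to DNA by zinc finger proteins that carry a KRAB domain. ZFP809 is such a protein and recognises the primer binding site of some murine retroviruses. TRIM28 in turn recruits SETDB1, which methylates lysine 9 of histone H3, and ATF7IP stabilises SETDB1 in the nucleus. The HP1 proteins CBX5 (alpha), CBX1 (beta) and CBX3 (gamma) bind that methylated residue and also bind TRIM28. CHAF1A and CHAF1B are the large and middle subunits of CAF-1, which deposits histones H3 and H4 on newly replicated DNA. MORC3 is a nuclear ATPase that reads methylated histone H3 and acts in silencing. In embryonic stem cells these factors keep endogenous retroviruses silent, and loss of several of them raises transcripts typical of the 2-cell embryo.

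All embryos were wild-type C57BL6/J. They were injected at the 1-cell stage with 200 ng/µl mRNA for Duxbl carrying a V5 tag, joined through a 2A sequence to a nuclear mCherry protein (Duxbl embryos), injected with 200 ng/µl mRNA for the nuclear mCherry protein alone (mCherry embryos), or left uninjected. Collection was at the late 1-cell stage (28 to 30 h after hCG, the hormone that triggers ovulation), the early 2-cell stage (32 h) or the late 2-cell stage (48 h). Uninjected and mCherry embryos gave 6 libraries at each stage, and Duxbl embryos gave 4, 5 and 5. Each library came from a pool of 5 embryos, and the labels give no parents or collection days, so p-values measure the spread between pools. Since whole embryos were pooled, fewer cells with a transcript and less transcript per cell cannot be told apart. The embryos' own Duxbl1 transcript was present in control libraries too, and protein was not measured.

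Libraries of the table summed to 22.5 to 27.0 M at the late 1-cell stage, 22.3 to 26.4 M at the early 2-cell stage and 12.0 to 22.5 M at the late 2-cell stage. Late 2-cell sums were higher in all Duxbl libraries (18.8 to 22.5 M) than in mCherry (12.8 to 18.7 M) and uninjected libraries (12.0 to 18.2 M). The values look like read counts scaled per library and rounded. Levels are given as CPM, counts per M, here of deposited values after trimmed-mean scaling. They are relative to the other transcripts of a library, so a rise or fall is not one in amount per embryo. Differences are on the log2(CPM + 1) scale, which understates changes of low genes. Duxbl1, the Duxbl gene of the table, lay at 1410 to 4799 CPM in Duxbl libraries, 111 to 488 in mCherry libraries and 82.4 to 635 in uninjected libraries, with no overlap between Duxbl and the rest. All 7 oocyte markers were detected, with sums of 823 to 6807 CPM per library.

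At the late 2-cell stage Trim28, Zfp809 and Setdb1 were lower in Duxbl than in mCherry embryos, and Cbx1 was higher. Promoters of these 4 genes are printed. Each runs from 250 bases before to 50 bases after the transcription start in RefSeq (GRCm38.p6, a different build from the mm39 of the table), 5′ to 3′ along the gene. Trim28 is at chr7:13023902-13024201 on the plus strand, Zfp809 at chr9:22225453-22225752 on the plus strand, Setdb1 at chr3:95357153-95357452 on the minus strand and Cbx1 at chr11:96788885-96789184 on the plus strand. A second RefSeq promoter of Zfp809, at chr9:22225462-22225761, is not printed. Capitals mark every match, on either strand, to the ETS core CCGGAAG, the CCAAT box and the GC box GGGCGG.
Trim28: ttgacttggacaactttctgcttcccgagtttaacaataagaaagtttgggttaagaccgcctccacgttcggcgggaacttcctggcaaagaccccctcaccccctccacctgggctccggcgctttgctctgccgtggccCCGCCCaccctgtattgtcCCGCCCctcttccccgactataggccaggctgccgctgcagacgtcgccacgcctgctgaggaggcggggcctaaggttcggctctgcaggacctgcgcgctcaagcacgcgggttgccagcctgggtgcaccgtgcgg
Zfp809: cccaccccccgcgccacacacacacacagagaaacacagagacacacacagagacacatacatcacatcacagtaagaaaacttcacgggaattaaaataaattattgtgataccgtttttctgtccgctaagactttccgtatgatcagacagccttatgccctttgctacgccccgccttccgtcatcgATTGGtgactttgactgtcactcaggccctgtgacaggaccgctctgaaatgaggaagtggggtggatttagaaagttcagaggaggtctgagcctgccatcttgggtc
Setdb1: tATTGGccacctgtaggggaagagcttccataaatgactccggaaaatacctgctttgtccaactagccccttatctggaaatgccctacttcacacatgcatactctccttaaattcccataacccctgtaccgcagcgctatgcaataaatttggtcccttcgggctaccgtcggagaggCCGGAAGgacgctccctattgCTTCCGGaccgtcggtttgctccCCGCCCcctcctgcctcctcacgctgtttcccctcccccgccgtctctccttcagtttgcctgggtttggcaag
Cbx1: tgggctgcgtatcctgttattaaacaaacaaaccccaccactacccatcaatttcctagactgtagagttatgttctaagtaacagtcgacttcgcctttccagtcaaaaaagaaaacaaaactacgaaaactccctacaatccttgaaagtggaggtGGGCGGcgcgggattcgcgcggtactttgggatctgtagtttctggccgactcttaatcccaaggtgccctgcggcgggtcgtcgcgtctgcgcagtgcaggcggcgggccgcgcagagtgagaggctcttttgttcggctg
Trim28 held 2 GC boxes, Cbx1 held 1 GC box, Zfp809 held 1 CCAAT box, and Setdb1 held 2 ETS cores, 1 CCAAT box and 1 GC box. GC content was 64.0% for Trim28, 55.3% for Setdb1, 52.7% for Cbx1 and 49.3% for Zfp809, with a median of 52.7% over all 32851 promoters.

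Motif matches were counted over the 13 RefSeq promoters that matched the 10 genes. The palindrome of TGATT and AATCA with any 1 base between them, a DUX-type double homeobox motif, was in none of them and in 0.0335% of all promoters. The ETS core was in 2 of the 13, those of Setdb1 and Chaf1b, and in 8.86% of all promoters. The CCAAT box was in 7 of the 13 (6 genes) and in 37.4% of all promoters, and the GC box in 10 of the 13 (9 genes) and in 35.7% of all. Such matches describe letters in a window and were not tested as binding sites. No motif was searched outside these windows, and the motifs were searched independently, so matches may overlap.

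The starting levels differed widely between the genes. Per kilobase of exon in the GENCODE M21 annotation, the mean level in uninjected late 1-cell embryos was 51.1 ± 7.98 CPM per kb (SD, n = 6) for Cbx1, 30.7 ± 3.12 for Setdb1 and 20.5 ± 5.42 for Trim28. Cbx5 had 14.1, Morc3 12.3, Atf7ip 9.71, Chaf1a 9.27, Chaf1b 7.43 and Zfp809 4.80 CPM per kb. Cbx3 was lowest of the 10, at 1.03 ± 0.31 CPM per kb. In uninjected late 2-cell embryos Zfp809 and Cbx1 had changed places most in the order per length: Zfp809 had 46.2 ± 23.0 CPM per kb and Trim28 41.3 ± 14.0, while Cbx1 had 8.83 ± 2.75. Duxbl embryos of the same stage held 52.8 ± 16.0 CPM per kb of Cbx1, 2.76 ± 1.29 of Trim28 and 1.35 ± 1.25 of Zfp809.

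**Figure D1:**
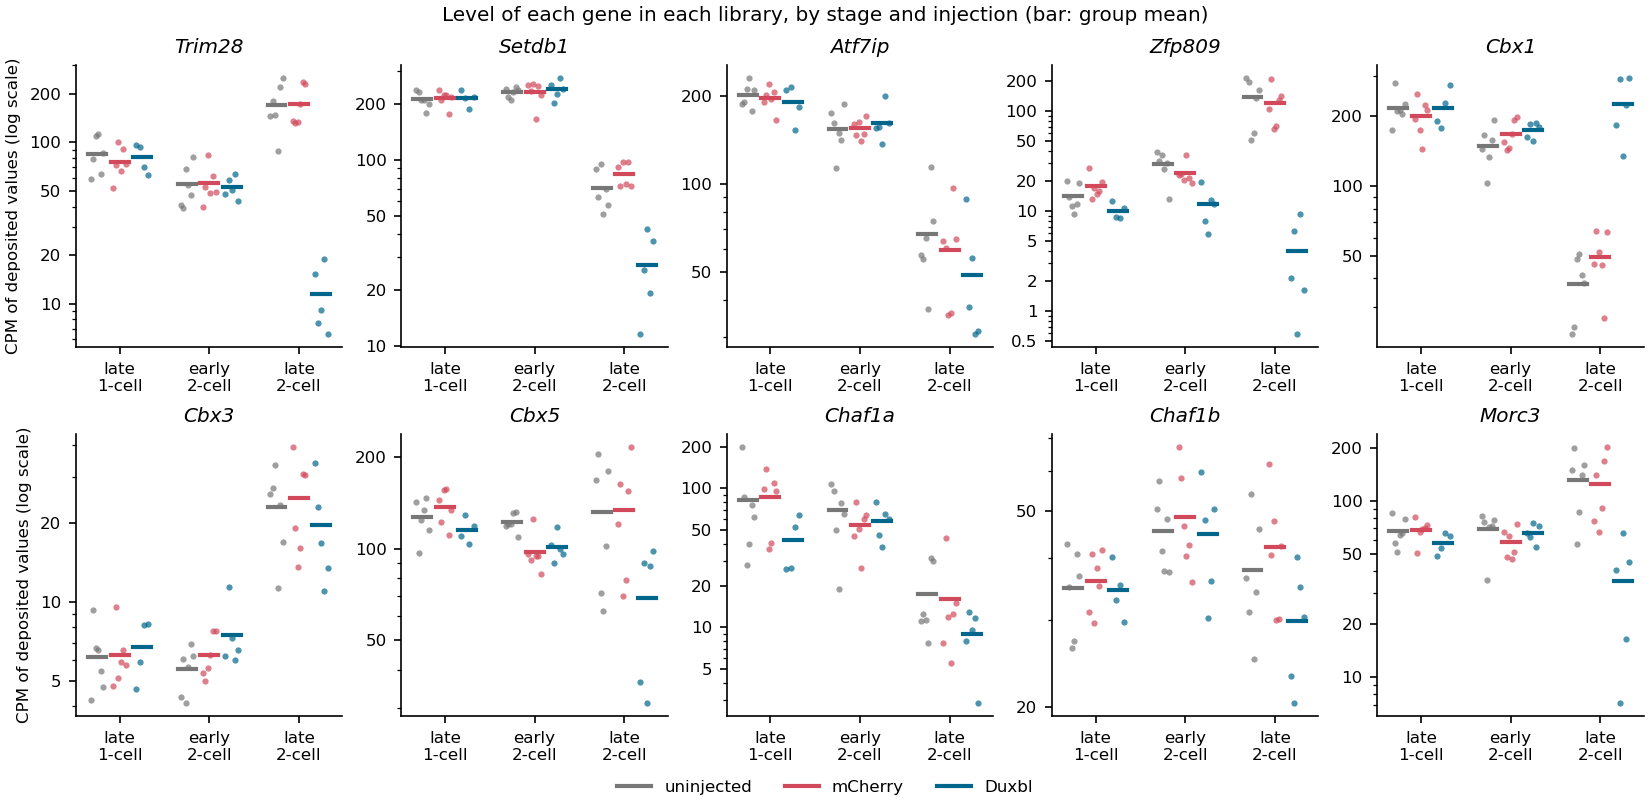
CPM (log scale) of each of the 10 genes in every library, by stage (x axis) and kind of embryo (colour). Each point is 1 pool of 5 embryos and each bar the group mean. At the late 2-cell stage the Duxbl points of Trim28 (6.45 to 18.9 CPM), Zfp809 (0.588 to 9.37) and Setdb1 (11.5 to 42.6) lie below all mCherry points, and those of Cbx1 (135 to 293) lie above them.

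What normally happens to these genes over the 2-cell stage was read from uninjected embryos, and 8 of the 10 changed (limma, adjusted p under 0.05), against 56.9% of all genes tested (30.3% higher, 26.6% lower). The 4 that rose were Zfp809, Cbx3, Trim28 and Morc3, and the 4 that fell were Cbx1, Chaf1a, Setdb1 and Atf7ip. In relative level the recruiter and the scaffold rose as the methyltransferase and its partner fell. Neither Cbx5 nor Chaf1b was called. For 5 of the 10 genes the ranges of the 2 stages did not overlap, beside 33.9% of all genes. The median over the 10 genes was -0.16, beside 0.02 for all genes.

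Zfp809 in uninjected embryos had a lowest, median and highest level of 13.2, 31.0 and 38.8 CPM at the early 2-cell stage and 51.8, 150 and 214 CPM at the late 2-cell stage. The ranges did not overlap, and the log2 difference was 2.06 (SE 0.34, limma adjusted p = 9.25e-07). Trim28 went from 39.3, 50.7 and 80.9 CPM to 88.2, 163 and 251 CPM, again without overlap, a 3.11-fold ratio of means and a log2 difference of 1.59 (SE 0.23, limma adjusted p = 5.89e-08). Cbx3, whose protein is the gamma form of HP1, rose from 4.11 to 6.90 CPM up to 11.3 to 33.5 CPM (1.82, SE 0.26, limma adjusted p = 2.22e-08). The rise of Morc3 was smaller, 0.86 (SE 0.30, limma adjusted p = 0.0132), and its ranges overlapped. Without the uninjected early 2-cell library numbered 4, which was low at 35.4 CPM, the Morc3 difference was 0.68 (limma adjusted p = 0.0572).

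Cbx1, the beta form of HP1, fell most of the 10. Its lowest, median and highest levels were 103, 151 and 193 CPM at the early 2-cell stage and 22.9, 39.7 and 51.1 CPM at the late 2-cell stage (log2 difference -2.0, SE 0.19, limma adjusted p = 6.63e-13). Setdb1 fell from 208, 234 and 245 CPM to 51.0, 66.2 and 94.3 CPM (-1.72, SE 0.18, limma adjusted p = 3.25e-12). The ranges of both genes were apart. Atf7ip fell by 1.25 (SE 0.21, limma adjusted p = 7.43e-07) and Chaf1a by 1.94 (SE 0.42, limma adjusted p = 8.95e-05), each with overlapping ranges. Cbx5 differed by -0.03 (SE 0.25) and Chaf1b by -0.28 (SE 0.20).

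Between the late 1-cell and early 2-cell stages none of the 10 genes was called in uninjected embryos by limma, and 3 had an unadjusted p under 0.05. Of all 28808 genes tested, 2.93% were called and 3128 had an unadjusted p under 0.05. The differences ran from -0.63 for Trim28 (SE 0.23, limma adjusted p = 0.194) to 0.98 for Zfp809 (SE 0.34, limma adjusted p = 0.143). Cbx1 differed by -0.55 (SE 0.19, limma adjusted p = 0.141). With only these 2 groups in the fit, Zfp809 (limma adjusted p = 0.0185) and Cbx1 (limma adjusted p = 0.0264) passed.

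Injection of mRNA itself was gauged with mCherry against uninjected embryos. None of the 10 genes and none of all genes tested (0%) was called by limma at any of the 3 stages. At an unadjusted p under 0.05 the counts were 0, 1 and 0 of the 10, and 564, 781 and 383 of all genes, from the earliest stage to the latest. Differences of the 10 genes lay between -0.33 and 0.40. The mCherry course over the 2-cell stage had 8 calls as well, 4 higher and 4 lower, against 57.2% of all genes (30.5% higher, 26.7% lower): Zfp809 2.20, Cbx3 1.75, Trim28 1.61, Morc3 0.98, Chaf1a -1.93, Cbx1 -1.78, Atf7ip -1.44 and Setdb1 -1.44.

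At the late 2-cell stage 6 of the 10 genes differed between Duxbl and mCherry embryos, 1 higher and 5 lower (limma, adjusted p under 0.05). The background was broad: 55.9% of all genes tested were called, 26.8% higher and 29.1% lower, so the count of 6 is close to that of genes at large. For 5 of the 10 the groups did not overlap, beside 34.5% of all genes. The median difference of the 10 was -0.80, beside -0.05 for all genes. With library totals alone in place of trimmed-mean factors the median of all genes moved to -0.26, the share of calls that were higher went from 47.9% to 39.8%, and the 10 genes gave 1 higher and 6 lower.

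The recruiter Zfp809 differed most. Its levels in the 5 Duxbl libraries were 2.15, 6.32, 0.588, 9.37 and 1.61 CPM, and those of the 6 mCherry libraries ran from 66.9 through a median of 117 to 209 CPM. All Duxbl libraries lay far below all mCherry libraries, with means of 4.01 ± 3.71 (SD, n = 5) and 120 ± 52.9 CPM (SD, n = 6). The ratio of means was 30.0-fold lower and the log2 difference -4.82 (SE 0.46, limma adjusted p = 1.72e-08). Within both control groups the libraries numbered 4 and 5 were the lowest for Zfp809, 51.8 to 70.4 CPM against 105 to 214 CPM in the others. Even these stood above every Duxbl library.

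Trim28, the scaffold, showed the next largest difference. Duxbl libraries had 15.3, 7.58, 9.17, 18.9 and 6.45 CPM, and mCherry libraries had a lowest level of 132, a median of 154 and a highest of 238 CPM. The groups were far apart, 11.5 ± 5.37 against 174 ± 49.4 CPM, a 15.1-fold lower mean and a log2 difference of -3.87 (SE 0.31, limma adjusted p = 1.03e-09). Trim28 (ENSMUSG00000005566) spans chr7:12733041-12764962 on the plus strand of mm39, and Zbtb45 lies inside this span on the other strand. The library kit does not mark strand, so reads of overlapping genes may be shared. Zbtb45 was 23.7 ± 12.5 CPM in Duxbl and 10.7 ± 4.37 CPM in mCherry embryos, the opposite order.

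Setdb1, the methyltransferase, was lower too, by less. Its levels were 11.5, 25.6, 42.6, 19.2 and 36.7 CPM in Duxbl libraries and 72.2, 83.1 and 97.6 CPM as lowest, median and highest in mCherry libraries. No Duxbl library reached the lowest mCherry library, and the log2 difference was -1.72 (SE 0.29, limma adjusted p = 3.33e-05), a 3.10-fold lower mean. Atf7ip, the partner that protects SETDB1, was 88.6, 37.8, 55.7, 30.6 and 31.5 CPM in Duxbl libraries and 35.5, 62.1 and 97.1 CPM in mCherry libraries. These groups overlapped and Atf7ip was not called (-0.32, SE 0.33, limma adjusted p = 0.424). Setdb1 overlaps the end of Cers2 on the other strand, which was also lower, 15.9 ± 10.7 against 46.4 ± 16.2 CPM, and the share of reads between them was not tested.

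The 3 HP1 genes went separate ways. Cbx1 was 184, 291, 135, 224 and 293 CPM in Duxbl libraries, and mCherry libraries ran from 26.9 through 49.1 to 64.1 CPM. Every Duxbl library was above every mCherry library, and the mean was 4.54-fold higher (log2 difference 2.15, SE 0.29, limma adjusted p = 1.79e-06). Those Duxbl levels overlapped the 145 to 249 CPM of mCherry late 1-cell embryos. Cbx5, the alpha form, was 36.3, 90.0, 31.0, 87.4 and 98.5 CPM in Duxbl libraries and 69.8, 138 and 216 CPM in mCherry libraries. The groups overlapped through the mCherry libraries numbered 4 and 5 (69.8 and 78.8 CPM), and the other 4 mCherry libraries (121 to 216 CPM) lay above every Duxbl library. Without the libraries numbered 4 and 5 in all groups the Cbx5 difference was -1.13 (SE 0.32, limma adjusted p = 0.00631). With all libraries the difference of -1.0 (SE 0.38, limma adjusted p = 0.0301) was lost without mCherry library 3, 6 or 7 or Duxbl library 1 or 4 (-0.94 to -0.76, limma adjusted p 0.0564 to 0.103) and with no filter on low values (limma adjusted p = 0.0535).

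Cbx3 gave 34.0, 23.0, 16.8, 11 and 13.5 CPM in Duxbl libraries and 13.7, 24.8 and 39.2 CPM in mCherry libraries, which overlapped (-0.34, SE 0.36, limma adjusted p = 0.437). The table lists 6 pseudogenes of Cbx3, none above a group mean of 1.35 CPM, and whether they share reads with Cbx3 was not tested. Inside the span of Cbx1 (chr11:96679953-96699466, mm39, plus strand) lies Gm11517, a processed pseudogene on the minus strand. It was 13.8 ± 4.85 CPM in Duxbl and 506 ± 228 CPM in mCherry embryos, opposite to Cbx1, and none of its exons meets a Cbx1 exon in GENCODE M21. Gm11517 was singled out after its values were seen.

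Both CAF-1 subunits kept overlapping ranges. Chaf1a, the large subunit, had 8.04, 13.0, 9.56, 11.7 and 2.85 CPM in Duxbl libraries and 5.58, 12.1 and 44.3 CPM in mCherry libraries (-0.60, SE 0.48, limma adjusted p = 0.296). Chaf1b, the middle subunit, had 23.1, 20.3, 40.3, 35.0 and 30.3 CPM in Duxbl libraries and 30.0, 41.5 and 62.2 CPM in mCherry libraries. Its difference of -0.48 (SE 0.28, limma adjusted p = 0.151) passed with library totals (-0.80, limma adjusted p = 0.0241) and in a fit of all 9 groups (limma adjusted p = 0.0423). A missed threshold does not show that the subunits were alike in both kinds of embryo.

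Morc3 was lower in Duxbl embryos. Its levels were 40.4, 7.13, 65.8, 16.5 and 45.0 CPM in Duxbl libraries and 66.8, 115 and 202 CPM in mCherry libraries. The groups did not overlap, though the highest Duxbl library (65.8 CPM) came close to the lowest mCherry library (66.8 CPM). Both carry the number 4, and the uninjected library of that number, at 56.9 CPM, lay below that Duxbl library. In controls of this stage the libraries numbered 4 and 5 averaged less Morc3 than the others. The means were 78.9 against 146 CPM in mCherry and 71.7 against 162 CPM in uninjected embryos. The log2 difference was -2.02 (SE 0.45, limma adjusted p = 0.000563), a 3.54-fold lower mean. Morc3 and Chaf1b are neighbours on chromosome 16, on the same strand and 7.83 kb apart, and only Morc3 was called, but their difference was not tested.

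**Figure D2:**
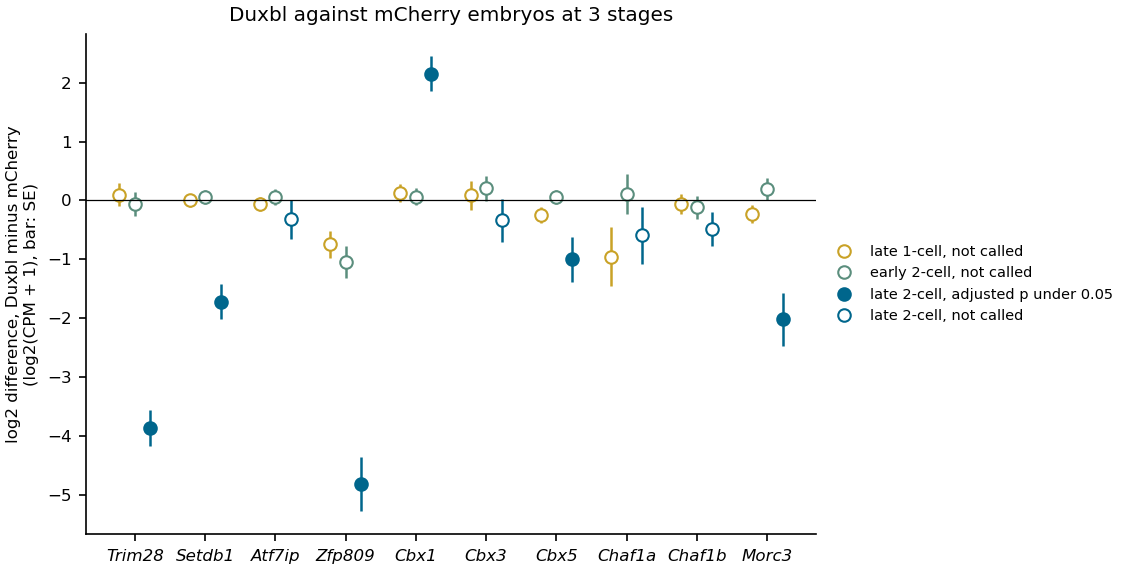
Log2 difference between Duxbl and mCherry embryos (y axis, log2(CPM + 1)) for each gene (x axis) at 3 stages (colour), with the SE as a bar. Filled points passed an adjusted p of 0.05. All points of the 2 early stages are open, and the late 2-cell points spread from -4.82 for Zfp809 to 2.15 for Cbx1.

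Before the late 2-cell stage no such differences were called. At the late 1-cell stage limma called none of the 10 genes (0.0193% of all genes), and differences ran from -0.95 to 0.12. An unadjusted p under 0.05 was reached by 1 of the 10 and by 1195 of all 20777 genes tested. At the early 2-cell stage none was called either (0.42% of all genes), and differences ran from -1.04 to 0.20. Again 1 of the 10 had an unadjusted p under 0.05, beside 1011 of all 21180 genes tested. That 1 gene was Zfp809 both times.

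Zfp809 at the late 1-cell stage was 12.7, 8.75, 8.45 and 10.6 CPM in Duxbl libraries and 13.2, 16.5 and 26.9 CPM in mCherry libraries. The groups did not overlap (1.42% of all genes), but the difference of -0.74 (SE 0.23) had a limma adjusted p of 0.736. At the early 2-cell stage Duxbl libraries gave 19.7, 8.02, 5.97, 13.0 and 11.8 CPM and mCherry libraries 19.0, 22.2 and 36.0 CPM. There 1 Duxbl library, numbered 3, reached into the mCherry range, and the difference of -1.04 (SE 0.27) had a limma adjusted p of 0.155. Without that library it was -1.24 (limma adjusted p = 0.0473), and against uninjected embryos it was -1.29 (limma adjusted p = 0.0196). The difference did not pass in 21 of 23 alternatives, and over all of them it ranged from -1.29 to -0.55.

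Chaf1a had the lowest difference at the late 1-cell stage, -0.95 (SE 0.50, limma adjusted p = 0.852). Duxbl libraries of this stage carry only the numbers 4 to 7, and libraries numbered 4 and 5 were low for Chaf1a in every group: 26.2 to 26.6 CPM in Duxbl, 36.7 to 40.2 in mCherry and 28.3 to 39.8 in uninjected embryos. The other numbers had 52.7 to 64.9, 96.0 to 138 and 62.8 to 199 CPM in the same order. Between libraries of the same number the Duxbl library was lower in all 4 pairs: 26.2 against 36.7, 26.6 against 40.2, 52.7 against 110 and 64.9 against 96.0 CPM. With the number as a replicate block the Chaf1a difference was -0.57 (SE 0.20, limma adjusted p = 0.472), so it was not called either way. Trim28, Setdb1, Atf7ip, Cbx1, Cbx3 and Chaf1b differed by at most 0.12 in either direction at this stage.

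Whether the Duxbl difference itself changed between the early and late 2-cell stages was tested as an interaction. It did for 6 of the 10 genes (1 higher, 5 lower), beside 44.9% of all genes (21.9% higher, 23.1% lower). The change was -3.81 for Trim28 (SE 0.35, limma adjusted p = 1.20e-12), -3.78 for Zfp809 (SE 0.51, limma adjusted p = 2.47e-08) and -1.78 for Setdb1 (SE 0.26, limma adjusted p = 1.51e-07). Morc3 had -2.21 (SE 0.45, limma adjusted p = 5.82e-05) and Cbx1 2.09 (SE 0.29, limma adjusted p = 3.84e-08). Cbx5 had -1.06 (SE 0.36, limma adjusted p = 0.0148), and -0.82 (limma adjusted p = 0.054) without the Duxbl late 2-cell library numbered 4. With only the library numbers shared by the groups compared, Cbx5 did not pass either (limma adjusted p = 0.0692). The other 4 genes, Atf7ip, Cbx3, Chaf1a and Chaf1b, had values of -0.71 to -0.37 and were not called.

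That interaction is the course within Duxbl embryos minus the course within mCherry embryos. Within Duxbl embryos alone, 9 of the 10 genes changed over the 2-cell stage, 1 higher and 8 lower, against 39.2% of all genes (20.4% higher, 18.8% lower). Trim28 and Zfp809, which rose in the controls, fell: Trim28 from 47.7, 58.3, 50.8, 64.1 and 43.1 CPM to the 6.45 to 18.9 CPM above (-2.20, SE 0.26, limma adjusted p = 9.10e-10), and Zfp809 by 1.57 (SE 0.38, limma adjusted p = 0.000614). Morc3 fell by 1.23 (SE 0.33, limma adjusted p = 0.00227) where it rose in controls. For these 3 genes the course was opposite to that of mCherry embryos.

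Setdb1 fell in every kind of embryo and further in Duxbl embryos, from 252, 201, 226, 275 and 241 CPM to 11.5 to 42.6 CPM (-3.22, SE 0.19, limma adjusted p = 2.03e-18). Cbx1 alone was not called within Duxbl embryos (0.31, SE 0.21, limma adjusted p = 0.254), with 163, 185, 156, 187 and 180 CPM at the early stage. Cbx3 rose by 1.21 (limma adjusted p = 0.000446), while Atf7ip (-1.82, limma adjusted p = 4.64e-09) and Chaf1a (-2.64, limma adjusted p = 6.35e-06) fell. Cbx5 (-0.70, limma adjusted p = 0.0327) and Chaf1b (-0.58, limma adjusted p = 0.0305) were each lost when only these 2 groups were fitted (limma adjusted p = 0.0825 and 0.108). Without the libraries numbered 4 and 5, and with only the library numbers shared by both groups, Cbx5 was lost too. Chaf1b was lost with library totals. Over all alternatives the limma adjusted p reached 0.257 for Cbx5 and 0.111 for Chaf1b. They were also lost on leaving out single Duxbl libraries: at the early stage 3, 5 or 6 for Cbx5 and 3, 4 or 7 for Chaf1b, and at the late stage 1 or 4 for Cbx5 and 1 or 3 for Chaf1b (-0.71 to -0.46, limma adjusted p 0.0501 to 0.182).

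**Figure D3:**
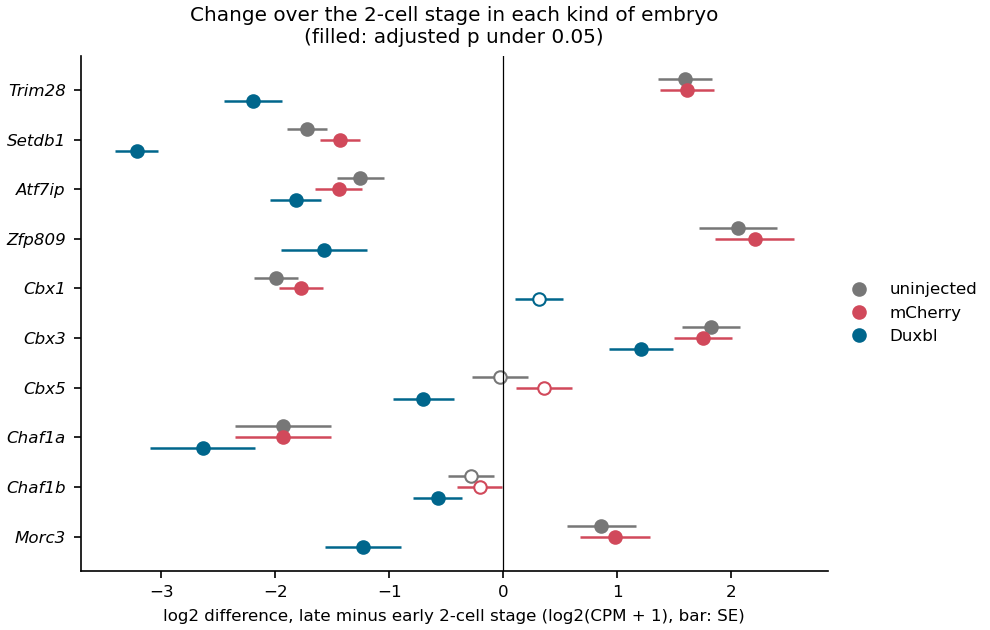
Log2 difference between the late and early 2-cell stages (x axis, log2(CPM + 1)) for each gene (y axis) in uninjected, mCherry and Duxbl embryos, with the SE as a bar; filled points passed an adjusted p of 0.05. Trim28 (1.59 and 1.61 in controls, -2.20 in Duxbl), Zfp809 and Morc3 change side, Setdb1 lies further left in Duxbl, and Cbx1 stays near 0 in Duxbl.

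Ordered by mean level over the 9 groups, Trim28 was highest in mCherry and uninjected late 2-cell embryos, whose ranges overlapped, and lowest in Duxbl late 2-cell embryos, whose range met no other. Zfp809 was likewise highest in the 2 control groups of the late 2-cell stage, and their ranges lay above those of the other 7 groups. Its lowest group was Duxbl late 2-cell, which overlapped the next, Duxbl late 1-cell. Setdb1 formed 3 steps. The 6 groups of the earlier stages came first, each overlapping its neighbour, then the late 2-cell controls at 51.0 to 97.6 CPM, then late 2-cell Duxbl embryos. Cbx1 had 2 steps, with late 2-cell Duxbl embryos among the earlier stages and only the 2 late 2-cell control groups below.

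Ratios within a library do not depend on scaling. The ratio of Cbx1 to Cbx5 in Duxbl late 2-cell libraries had a lowest value of 2.56, a median of 3.24 and a highest of 5.08. In mCherry libraries it was 0.174, 0.388 and 0.745, and in uninjected libraries 0.120, 0.309 and 0.821. Duxbl libraries lay above all controls of their stage. The ratio of Setdb1 to Atf7ip ran from 0.130 to 1.17 in Duxbl and from 1.01 to 2.72 in mCherry libraries, which overlapped.

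The CAF-1 subunits shifted against each other in their median ratio in all 3 kinds of embryo. The median ratio of Chaf1a to Chaf1b went from 1.65 at the early to 0.358 at the late 2-cell stage in uninjected, from 1.24 to 0.30 in mCherry and from 1.26 to 0.333 in Duxbl embryos. Between the 2 stages the ranges overlapped in uninjected (early lowest 0.503, late highest 0.931) and mCherry embryos (0.657 and 1.09). They did not overlap in Duxbl embryos (0.961 and 0.637). At the late stage the ranges of the 3 kinds of embryo overlapped. The ratios were described without a test.

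**Figure D4:**
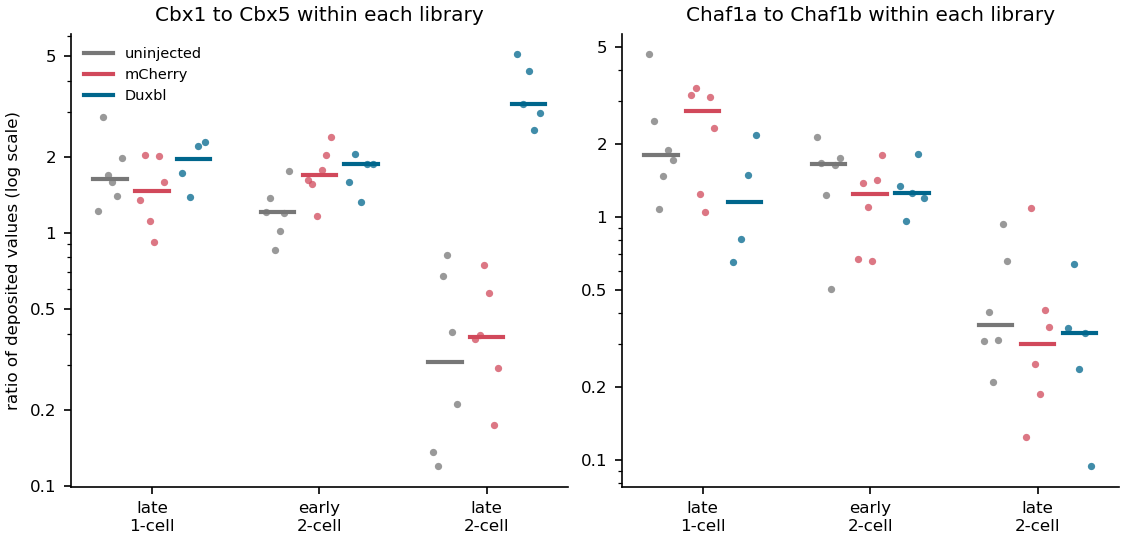
Ratio of Cbx1 to Cbx5 (left) and of Chaf1a to Chaf1b (right) within each library (log scale) by stage and kind of embryo; bars are group medians. At the late 2-cell stage the Duxbl libraries lie between 2.56 and 5.08 on the left, above all control libraries (at most 0.821). On the right 4 of the 5 lie within the range of the controls and 1, at 0.0941, lies below it.

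Other genes of the same pathways were taken from fixed lists, which were chosen with earlier results of these data known. They were compared between Duxbl and mCherry embryos at the late 2-cell stage, beside the same 55.9% of all genes. Of 15 further partners of TRIM28 and SETDB1, 7 were higher and 6 lower (median 0.22). Atf7ip2, a relative of Atf7ip, was lower at 20.3 ± 10.9 against 182 ± 56.2 CPM (-3.17, limma adjusted p = 1.04e-07). The remodeller gene Smarcad1 (-2.38, limma adjusted p = 1.98e-04) and Zfp42, also called Rex1 (-2.36, limma adjusted p = 1.24e-05), were lower too. The zinc finger gene Zfp932 was higher (2.44, limma adjusted p = 1.04e-06).

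Of 8 genes in a list of HUSH subunits and MORC genes that also holds Setdb2, 1 was higher and 3 were lower (median -0.52). The lower ones were Morc2a (-2.12, limma adjusted p = 6.13e-05), Tasor, a HUSH subunit (-1.44, limma adjusted p = 8.98e-05), and Setdb2 (-1.0, limma adjusted p = 0.00247). The higher one was Morc2b, which had 2.20 ± 2.00 CPM in Duxbl and 0.486 ± 0.645 CPM in mCherry embryos and is named here outside the rule.

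Among 18 other genes of histone H3 lysine 9 methylation and heterochromatin, 4 were higher and 7 lower (median -0.23). The paired methyltransferases Suv39h1 and Suv39h2 went apart. Suv39h1 was 8.27 ± 13.0 CPM in Duxbl and 117 ± 34.6 CPM in mCherry embryos (-4.73, limma adjusted p = 3.65e-07), while Suv39h2 was 135 ± 52.4 against 55.6 ± 12.5 CPM (1.17, limma adjusted p = 0.00174). Over the 2-cell stage of uninjected embryos Suv39h1 rose by 5.51 and Suv39h2 fell by 1.74, and in Duxbl embryos the values were 0.51 (limma adjusted p = 0.431) and -0.80. Mta2, a subunit of the NuRD deacetylase complex, was lower (-4.74, limma adjusted p = 3.49e-08), as was the lamin B receptor gene Lbr (-2.18, limma adjusted p = 4.57e-07). Chd4, the NuRD remodeller (1.27, limma adjusted p = 8.31e-04), and Cbx2 of Polycomb (0.69, limma adjusted p = 0.0418) were higher.

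Histone chaperones were called in 1 direction: of 18 genes, 9 were lower and none higher (median -0.47). Of all genes 29.1% were lower and 26.8% higher, and the list was not tested against them. The largest differences were in Hira, which places the replication-independent histone H3.3 (-2.06, limma adjusted p = 1.06e-04), Nasp, a carrier of free histone H3 and H4 (-1.56, limma adjusted p = 3.51e-05), and Tonsl, a reader of new histones (-1.32, limma adjusted p = 0.0233). Rbbp4, the small CAF-1 subunit, was 31.0 ± 10.1 against 58.8 ± 10.5 CPM (-0.94, limma adjusted p = 0.00516) and is named outside the rule because it completes the complex.

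Transcripts of the 2-cell program, which this repression system restrains in stem cells, were lower as well. Of 19 genes tested, 18 were lower and none was higher at the late 2-cell stage (median -4.41). Zscan4a went from 170 ± 56.0 CPM in mCherry to 0.670 ± 0.467 CPM in Duxbl embryos (-6.66, limma adjusted p = 9.13e-12). Zscan4d (-6.43, limma adjusted p = 1.31e-10) and Tdpoz1 (-5.75, limma adjusted p = 1.62e-08) were next. At the early 2-cell stage 8 of 18 tested were already lower (median -2.28), beside 0.42% of all genes called there, and at the late 1-cell stage 2 of 15, beside 0.0193%, while the other 4 lists had no call at either stage. Between stages and lists the counts were not tested against each other.

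**Figure D5:**
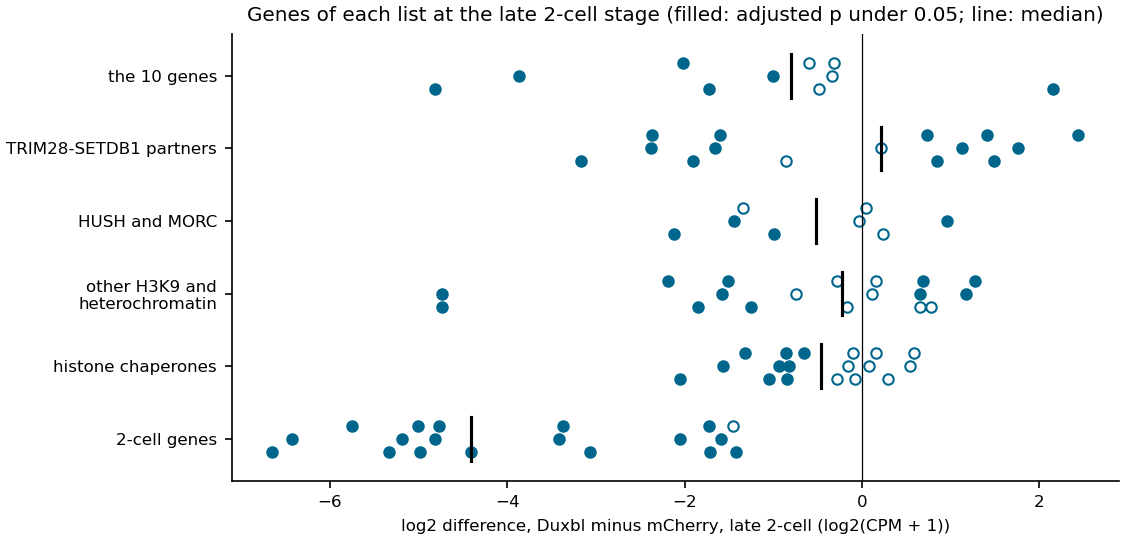
Log2 difference between Duxbl and mCherry embryos at the late 2-cell stage (x axis, log2(CPM + 1)) for every tested gene of each list (y axis); filled points passed an adjusted p of 0.05 and the line is the list's median. The medians are -0.80 for the 10 genes, 0.22 for TRIM28-SETDB1 partners, -0.52 for HUSH and MORC, -0.23 for other heterochromatin genes, -0.47 for histone chaperones and -4.41 for 2-cell genes.

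Of the marker lists, the oocyte and blood sums separated the same groups, and the cumulus, oviduct and sperm sums overlapped. The 7 oocyte markers summed to 3564 to 4750 CPM in Duxbl and 912 to 1461 CPM in mCherry late 2-cell libraries, without overlap. Cumulus markers (7 of 8 listed) summed to 9.96 to 50.6 against 8.72 to 15.7 CPM, oviduct markers (4 of 4) to 71.9 to 178 against 42.9 to 152, sperm markers (5 of 5) to 3.5 to 31.6 against 2.93 to 8.71, and blood markers (3 of 4) to 0 to 5.46 against 10.4 to 19.96. Approximate depths, estimated from the steps of the values, averaged 17.1 M reads in Duxbl and 19.9 M in mCherry late 2-cell libraries. Of the cumulus, oviduct, sperm and blood markers, Amh and Hbb-bs had no row, and Foxj1, Tnp2, Ptprc, Inhba, Pax8 and Ptgs2 stayed under 1 CPM in every group mean. Cyp19a1, Ovgp1, Epcam and the sperm marker Prm2 were above 0 in all 50 libraries. The part of these lists and depths in the results was not tested.

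Genes whose levels ran most like those of each member over all 50 libraries were sought among 9890 genes with a mean of at least 10 CPM, by Pearson's r of log2(CPM + 1). The libraries share stages and treatments, so r describes the groups and carries no p. Trim28 ran closest to Eif6 (0.92) and Rpl29 (0.92), and Zfp809 to Gm49064 (0.94) and Gm12790 (0.93). Setdb1 ran closest to Stau1 and Zcchc10 (both 0.95), Atf7ip to Kat14 (0.95) and Usp19 (0.94), and Cbx1 to Fam217a (0.97) and Agr3 (0.96). For Cbx3 the closest were Yme1l1 (0.93) and Kpna4 (0.92), for Cbx5 Sgo1 and Rnf4 (both 0.82), for Chaf1a Prr23a3 and Nudc (both 0.91), and for Morc3 Mat2a and Gm12669 (both 0.85). Chaf1b had no close match, with 0.55 for Srp68 and 0.54 for Top3a. Among the 10 genes themselves, Setdb1 and Atf7ip had an r of 0.83, Trim28 and Zfp809 of 0.77, and Zfp809 and Cbx1 of -0.82. Chaf1a had 0.803 with Atf7ip and 0.755 with Setdb1. Partners did not always run together: Trim28 and Setdb1 had 0.247, and Chaf1a and Chaf1b 0.331.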

How the data were processed

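RNA was measured by RNA sequencing in 50 libraries of 9 groups. Libraries came from SMART-Seq v4 cDNA and a Nextera XT kit, neither of which marks strand, per the labels' protocols. The genome mm39 and the tools DESeq2 1.36.0, DESeq, featureCounts 2.0.4, STAR 2.7.10a, Trimmomatic 0.39 and Picard 3.0.0 are named in the submitters' processing notes, and their roles are not given in the sources used here. The deposited whole numbers were treated as a score, since the authors' values look like read counts scaled per library and rounded. Low values were best fitted by steps of 0.554 to 1.988 per read, and 19 libraries never use some whole numbers between 1 and 20. Dividing totals by these fitted steps gave approximate depths of 13.1 to 40.7 M reads. The fits were least close in the Duxbl late 2-cell libraries numbered 6 and 7. No counting interval was computed. The lowest row maximum was 6, so low genes had been left out, and no 2 libraries held identical values.

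Values were scaled with trimmed-mean-of-M factors from all 50 libraries (trims of 0.3 and 0.05), and 1 CPM was added before log2. Genes entered a test if the number of libraries with a value of 10 or more reached the size of the smallest group in the fit, and were tested with limma 3.58.1 in R 4.3.3 (trended, robust, two-sided, 1 mean per group). Benjamini-Hochberg adjustment ran over all genes tested, with calls at an adjusted p under 0.05. Duxbl with mCherry and mCherry with uninjected embryos were compared in fits of 1 stage, and stage changes and the interaction in a fit of all 9 groups. These share libraries, so comparisons are not independent. The steps were tested on simulated data.

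The members and lists were chosen with earlier results of these data known. Named genes were the 10 members, and of each list up to 3 called genes per direction with the largest difference at the late 2-cell stage and at least 10 CPM in the higher group. Some genes that this rule picks are not reported here. Groups share library numbers, whose meaning the labels do not give. Same-numbered Duxbl and mCherry libraries deviated together at the late 1-cell stage (r 0.198 to 0.34, 4 of 4 pairs over 0.1), where the pairing comes from the data alone. In the other 5 sets of groups compared, not every pair did. For Duxbl and mCherry, 4 of 5 pairs were over 0.1 at the early 2-cell stage (r 0.07 to 0.331) and 0 of 5 at the late 2-cell stage. For mCherry and uninjected embryos 4, 5 and 4 of 6 pairs were, from the earliest stage to the latest. The main tests did not use the numbers.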

Additional observations from a re-analysis of the deposited data

Results flagged for a closer look

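The Duxbl difference changed between the early and late 2-cell stages by an interaction test for 6 genes: Trim28 (-3.81), Zfp809 (-3.78), Morc3 (-2.21), Setdb1 (-1.78), Cbx5 (-1.06) and Cbx1 (2.09).

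In 8 of 90 sets of values (10 genes in 9 groups), 1 library lay apart from the rest by Dixon's test, which chance does for about 1 in 20. Setdb1 was 166 CPM in the mCherry early 2-cell library numbered 5, where the nearest other library had 223, and the same library had 36.0 CPM of Zfp809, nearest 23.4. Cbx5 was 125 CPM in the mCherry early 2-cell library numbered 4, nearest 96.0, and Morc3 was 35.4 CPM in the uninjected early 2-cell library numbered 4, nearest 70.8. Cbx3 was 9.58 CPM in the mCherry late 1-cell library numbered 3, nearest 6.57, and 11.4 CPM in the Duxbl early 2-cell library numbered 4, nearest 7.32. Chaf1a was 199 CPM in the uninjected late 1-cell library numbered 1, nearest 86.2, and 44.3 CPM in the mCherry late 2-cell library numbered 3, nearest 14.9.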

How the results depend on the processing

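Of 1140 member differences recomputed under other settings, 1123 kept their side of the threshold, 8 no longer passed and 9 newly passed. Of 1360 recomputed without 1 library, 1341 kept their side, 17 no longer passed and 2 newly passed. No difference that passed in the main or the other fit changed direction. Changes of direction among differences that passed in neither were not counted. Such changes occurred: the late 1-cell Trim28 difference between Duxbl and mCherry embryos, 0.10, ranged from -0.09 to 0.21. At the late 2-cell stage Trim28 (-4.19 to -3.71), Zfp809 (-5.40 to -4.49), Setdb1 (-2.04 to -1.45), Morc3 (-2.60 to -1.57) and Cbx1 (1.84 to 2.55) passed in all 23 alternatives. The count of members called for Duxbl at the early 2-cell stage was 1 with uninjected embryos as the control, and 0 to 1 when leaving out each library. For uninjected early 2-cell against late 1-cell embryos it was 2 with only the compared groups, and 0 to 1 when leaving out each library. The cause was not tested. The replicate block left every count of calls as it was: 6 at the late 2-cell stage, 0 at both earlier stages. Every other alternative kept each count within 1.5 times. Morc3 over the uninjected 2-cell stage did not pass on the deposited scale (0.68, limma adjusted p = 0.0518). Cbx5 over the mCherry 2-cell stage passed with library totals (0.81, limma adjusted p = 9.00e-04) and also without the libraries numbered 4 and 5. In the interaction Atf7ip (-0.74) and Chaf1b (-0.73) passed with library totals. The deposited scale, factors from the fit's own libraries and the numbers shared by compared groups were alternatives chosen after seeing the data. Depth limits genes near 1 CPM, and scaled values allow no detection limit.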
